A study of Mus musculus with 6 samples.

Results

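The forkhead genes were taken from the deposited expression table by symbol alone, as every row named Fox followed by a letter from a to s and a number, and 44 of the 24736 genes met this rule. Their RNA was compared between mouse ESCs at 0 h and EpiLCs, the epiblast-like cells obtained by differentiating them for 48 h, and each state was sampled in 3 biological replicates. Both groups were wild-type cells of the XY HM1 TetON line, a single line from which the other lines of the study were made. The ESCs were undifferentiated and were grown on mitotically inactivated mouse embryonic fibroblasts in medium with 1000 U/ml LIF and 10% serum, and the EpiLCs were grown in N2B27 medium with 5 µM LGK974, an inhibitor of WNT secretion, and 10 ng/ml bFGF. Feeder cells were removed by adhesion to plastic when differentiation was started, and whether the cells harvested at 0 h were treated in this way is not given in the sources used here.

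Forkhead proteins bind DNA through a winged-helix domain and are divided by sequence into lettered subfamilies with distinct inputs. FOXO factors are held in the cytoplasm when AKT phosphorylates them downstream of insulin and growth factor signalling, FOXH1 carries SMAD2 and SMAD3 to the targets of Nodal signalling, and FOXM1 drives genes of mitosis. FOXD3 is needed to maintain the pluripotent epiblast and the neural crest, FOXA factors open chromatin in endoderm and in the node, and FOXC, FOXF and FOXD1 factors act mostly in mesenchyme.

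Each library held between 16967741 and 35096210 expected counts, so that 3 counts, taken as the floor of detection, amounted to between 0.0855 and 0.177 CPM with regard to counting error alone. Levels are given as TPM, which is scaled for transcript length and library, and differences as log2 fold changes of EpiLCs against ESCs from edgeR, with their standard error (SE) and a p-value adjusted over all 14468 genes that passed the filter on low counts. A gene was called at an adjusted p of at most 0.05. All 5 EpiLC identity genes were called higher in EpiLCs, and 6 of 7 ESC identity genes were called lower, with Pou5f1 the exception (0.07, adjusted p = 0.496). The ESC libraries differed among themselves, since the second principal component, with 11.4% of the variance, set ESC 2 (-42.3) apart from ESC 3 (43.6). The summed level of 15 fibroblast markers was 315, 1557 and 112 TPM in ESC 1, 2 and 3 and between 89.1 and 96.9 TPM in EpiLCs. Fap was at 0 in each EpiLC library and Lum at 0 in EpiLC 1 and 2 and in ESC 3. In each EpiLC library Acta2 (47.8, 16.8 and 48.9 TPM) and Thy1 (20.1, 23.8 and 22.2 TPM) had the highest levels of the list. Single markers differed more from ESC 3 than the sum did. Col1a1 was at 28.3 TPM in ESC 3 and at 6.63, 13.9 and 3.08 TPM in EpiLC 1, 2 and 3. Dcn went the other way, with 0.08 TPM in ESC 3 and 0.38, 0.82 and 0.78 TPM in EpiLCs. Of the 13 fibroblast markers tested 6 were lower in EpiLCs (46.2%, and 22.8% of all genes), against 10 without ESC 3 and 2 without EpiLC 1 or without EpiLC 3. Primitive streak markers summed to between 138 and 446 TPM in ESCs and to 8.31, 8.59 and 47.1 TPM in EpiLC 1, 2 and 3, with 6 of 8 tested lower (75%, against 22.8% of all genes tested). Primitive endoderm markers summed to between 37.8 and 72.5 TPM in ESCs and between 11.9 and 13.2 TPM in EpiLCs, with 6 of 9 lower (66.7%, against 22.8% of all genes tested) and 1 higher (4 called without EpiLC 2 or without EpiLC 3). Of 5 neural markers tested 2 were higher (40%, against 22.6% of all genes tested) and 0 lower, with 5 called in either direction without ESC 1. In bulk RNA, fewer cells of a type and less RNA per cell cannot be told apart.

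To show the sequences from which the most altered forkhead genes start, the 250 bases before the annotated start are printed for Foxi3 and Foxp4, the genes with the largest rise and the largest fall among those above 10 TPM that the promoter table holds, and for Foxf2 and Foxc1, neighbours on chromosome 13 that were both lower in EpiLCs. They are RefSeq sequences on GRCm38.p6, written 5′ to 3′ on the strand of the gene, with each CG dinucleotide in capitals. Foxi3 lies on the plus strand (chr6:70956356-70956605, 24 CG), Foxp4 on the minus strand (chr17:47924633-47924882, 27 CG), and Foxf2 (chr13:31625566-31625815, 21 CG) and Foxc1 (chr13:31806396-31806645, 29 CG) on the plus strand.
Foxi3: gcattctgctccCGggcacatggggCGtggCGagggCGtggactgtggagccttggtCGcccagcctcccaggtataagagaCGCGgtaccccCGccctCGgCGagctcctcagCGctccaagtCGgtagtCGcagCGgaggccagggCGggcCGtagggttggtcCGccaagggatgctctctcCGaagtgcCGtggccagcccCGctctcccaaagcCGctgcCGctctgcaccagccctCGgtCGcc
Foxp4: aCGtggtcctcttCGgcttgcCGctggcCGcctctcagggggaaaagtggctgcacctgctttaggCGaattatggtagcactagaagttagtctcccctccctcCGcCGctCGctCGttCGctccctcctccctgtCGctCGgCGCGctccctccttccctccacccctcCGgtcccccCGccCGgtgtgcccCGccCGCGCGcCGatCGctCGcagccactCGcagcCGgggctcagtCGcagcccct
Foxf2: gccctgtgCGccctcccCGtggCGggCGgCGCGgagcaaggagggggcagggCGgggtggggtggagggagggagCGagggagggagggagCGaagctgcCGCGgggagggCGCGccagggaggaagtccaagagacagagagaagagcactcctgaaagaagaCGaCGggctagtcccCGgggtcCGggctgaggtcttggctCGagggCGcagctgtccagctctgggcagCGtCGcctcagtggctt
Foxc1: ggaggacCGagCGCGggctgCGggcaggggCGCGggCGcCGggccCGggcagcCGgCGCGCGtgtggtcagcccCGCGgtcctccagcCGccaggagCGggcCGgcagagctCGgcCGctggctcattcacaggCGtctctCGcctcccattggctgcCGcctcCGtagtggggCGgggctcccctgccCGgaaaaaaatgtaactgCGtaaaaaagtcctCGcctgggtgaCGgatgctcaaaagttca
The ratio of observed to expected CG was 0.776 for Foxi3, 0.959 for Foxp4, 0.724 for Foxf2 and 0.928 for Foxc1, so the gene that rose and the 3 that fell all started from CG-rich sequence. Across the forkhead family 28 of the 44 genes had an entry, with 33 promoters, and their median ratio was 0.704 against 0.373 over all 32851 promoters of the table. A ratio of at least 0.6 was found in 21 of the 33 (63.6%) and in 34.0% of all promoters. Promoters of the forkhead genes at 10 TPM or more in either group had a median of 0.879 (11 promoters of 9 genes), and those of genes under 1 TPM in both groups a median of 0.505 (10 promoters of 9 genes). The letters of a core forkhead motif, TGTTTAC on either strand, were present in 1 of the 33 promoters, that of Foxa1 (3.03%, against 3.17% of all), and those of a FOXH1 motif, AATNCACA, in 0 of 33 (3.18% of all).

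Both cell states transcribed a broad forkhead repertoire in which Foxh1 had the highest mean TPM in each. In ESCs 2 and 3 Foxp4 was above Foxh1, so that the order of these 2 genes in ESCs rests on ESC 1. In ESCs 28 members had a mean of at least 1 TPM and 14 of at least 10 TPM, and in EpiLCs 21 and 14 did. The 3 most abundant members held 39.1% of all forkhead TPM in ESCs (Foxh1, Foxp4 and Foxk2) and 42.2% in EpiLCs (Foxh1, Foxk2 and Foxm1), and the 10 most abundant held 79.2% and 81.2%. Foxp4 was 2nd in ESCs and 9th in EpiLCs by mean TPM, Foxq1 14th and 29th, and Foxi3 15th and 5th. The sum over the 44 genes was 532, 524 and 508 TPM in ESC 1, 2 and 3 and 562, 573 and 580 TPM in EpiLC 1, 2 and 3, a log2 ratio of 0.13 (two-sided exact permutation test, p = 0.1, the smallest that 3 against 3 libraries allow), which turned to -0.025 when TMM-scaled CPM were summed in place of TPM. The total was therefore almost level while its composition shifted.

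**Figure D1:**
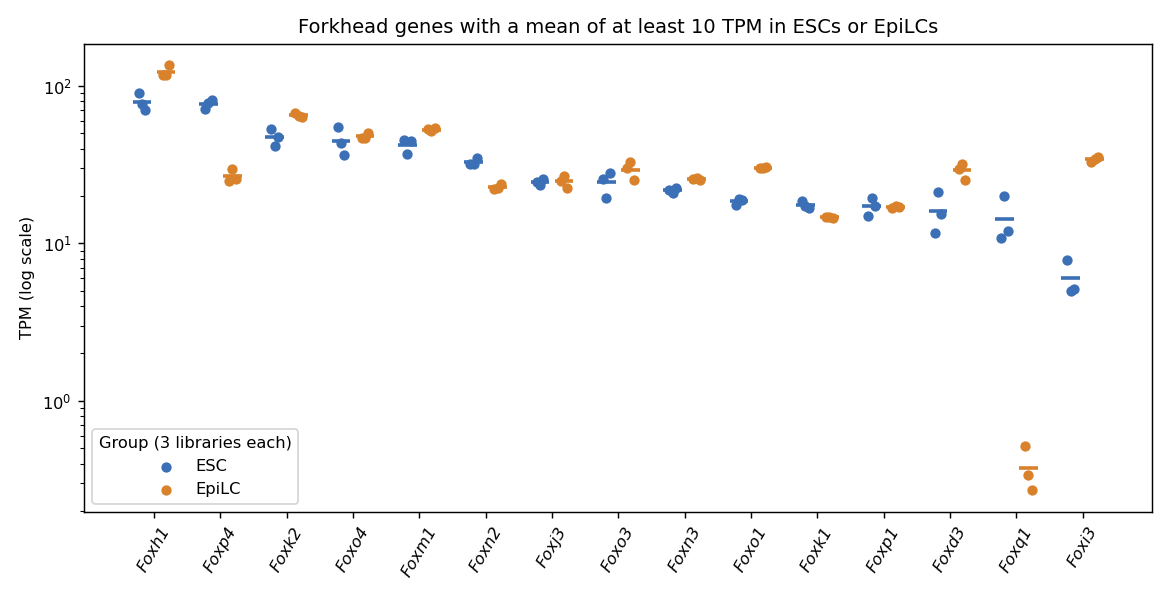
TPM on a log scale of the 15 forkhead genes with a mean of at least 10 TPM in either group, ordered by their level in ESCs. Points are libraries (3 ESC, 3 EpiLC) and lines are group means. Foxp4 and Foxq1 lie lower in each EpiLC library than in each ESC library, Foxi3 lies higher in each, and the points of Foxj3, Foxo3, Foxo4 and Foxp1 overlap between the groups.

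Of the 44 genes 31 passed the filter, and 17 of these (54.8%) were called, against 45.4% of all 14468 genes tested. The 7 called higher in EpiLCs made up 22.6% of the tested forkhead genes, the same share as over all genes (22.6%), and the 10 called lower made up 32.3% against 22.8%. With a log2 fold change above 1 in size, 2 were higher (6.45% against 8.78%) and 8 were lower (25.8% against 11.5%). The TPM of the groups did not overlap for 19 of the 31 (61.3%), against 59.5% of all genes tested. The median log2 fold change of the tested members was -0.13, against -0.0017 over all genes, and it turned to 0.02 without ESC 2 and to 0.01 with a filter of 10 counts in every library. Of the 15 members at 10 TPM or more in either group 5 rose, 4 fell and 6 were not called, so most of the large falls were of genes with low levels. Without ESC 2, 16 forkhead genes were called (48.5% of members tested, against 48.8% of all genes in that fit), 6 higher and 10 lower, with 8 of the latter past a log2 fold change of 1. Without EpiLC 1, 11 were called, 4 higher and 7 lower (34.4% of members tested, against 28.7% of all genes in that fit), and without EpiLC 2, 12 were called, 6 each way (36.4% against 32.2%).

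**Figure D2:**
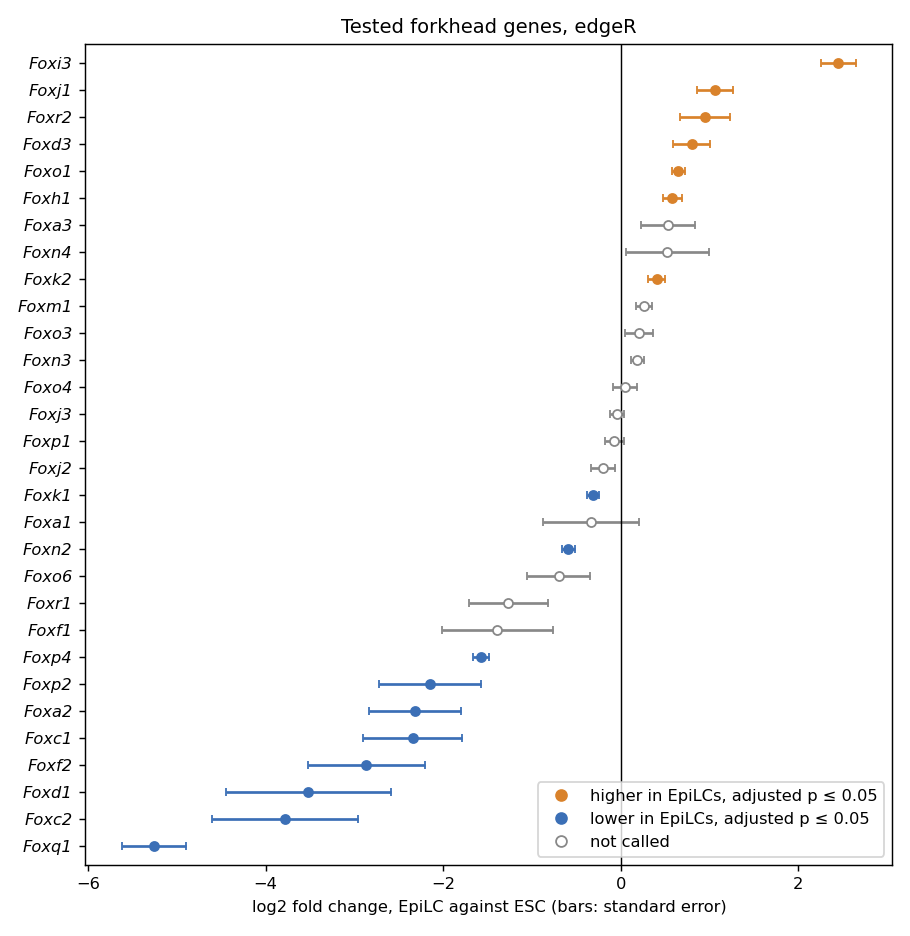
Log2 fold change of EpiLCs against ESCs for the tested forkhead genes reported here, from edgeR, with bars for the standard error. Filled points were called at an adjusted p of at most 0.05 (7 higher, 10 lower) and open points were not. The falls extend to -5.26 (Foxq1) and the rises to 2.46 (Foxi3).

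Among subfamilies, FOXP lost most TPM, and FOXI gained most in proportion to its level. The 4 FOXP genes summed to 94.5 ± 7.08 TPM (mean ± SD over 3 libraries, as for all sums here) in the ESC libraries against 43.9 ± 2.75 TPM in EpiLCs, from 18.1% to 7.67% of all forkhead TPM. FOXH, which is Foxh1 alone, went from 15.3% to 21.6% and replaced FOXP as the largest subfamily by mean TPM. The 3 FOXI genes went from 6.03 ± 1.66 to 34.1 ± 1.25 TPM, the 4 FOXD genes from 18.4 ± 6.69 to 29.9 ± 2.83 TPM, and FOXQ from 14.3 ± 4.98 to 0.377 ± 0.129 TPM. FOXO summed to 88.9 ± 8.52 and 108 ± 2.01 TPM, FOXK to 65.0 ± 6.45 and 79.9 ± 2.02 TPM, and FOXM, which is Foxm1 alone, to 42.3 ± 4.69 and 52.8 ± 1.22 TPM. FOXN (56.8 ± 3.19 and 51.7 ± 0.975 TPM) and FOXJ (31.1 ± 1.08 and 32.7 ± 2.62 TPM) stood closest to their ESC level among the subfamilies above 10 TPM, although with TMM-scaled CPM the log2 ratio of FOXN was -0.30, farther from 0 than that of FOXK (0.21) or FOXM (0.28). These sums follow their most abundant members and are given as a description.

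**Figure D3:**
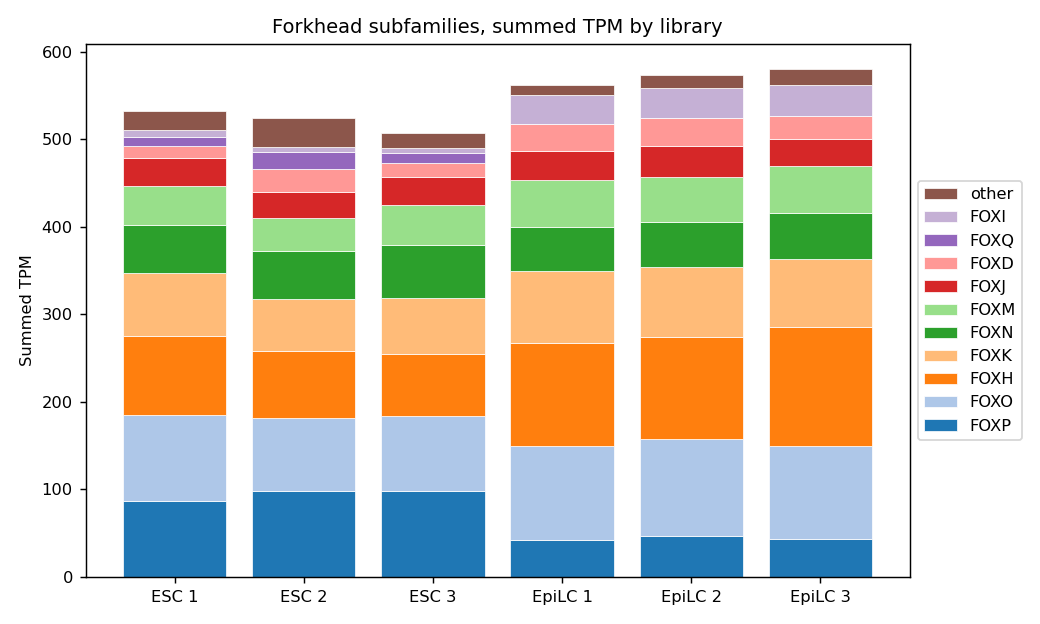
Summed TPM of the forkhead subfamilies in each of the 6 libraries, stacked, with the subfamilies not named in the key as other. The stacks end between 508 and 532 TPM in ESCs and between 562 and 580 TPM in EpiLCs, while the FOXP band narrows from between 86.3 and 98.6 TPM to between 41.8 and 47.0 TPM and the FOXI band widens from at most 7.94 TPM to at least 32.8 TPM.

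Foxh1, which brings SMAD complexes to Nodal-responsive genes, rose, and had the highest TPM of the family in every EpiLC library and in ESC 1. Its levels were 90.5, 77.3 and 70.7 TPM in ESC 1, 2 and 3 and 118, 117 and 135 TPM in EpiLC 1, 2 and 3. The groups did not overlap, and the log2 fold change was 0.58 (SE 0.11, adjusted p = 0.00571). Of its partners, Smad2 (log2 fold change 0.00, adjusted p = 0.996) and Smad3 (-0.09, adjusted p = 0.547) were not called, and Smad4 rose by 0.35 (SE 0.07, adjusted p = 0.00795). The ligand and target genes moved the other way. Of the 19 genes listed as FOXH1 partners and Nodal targets, all tested, 13 were lower (68.4%, against 22.8% of all genes tested), 12 of them by a log2 fold change above 1 (11.5% of all genes), and 1 was higher, with a median of -3.28. Nodal itself was at 77.2, 62.6 and 53.9 TPM in ESCs and 4.59, 5.33 and 10.7 TPM in EpiLCs (-3.28, SE 0.34, adjusted p = 5.35e-04). The feedback inhibitor Lefty2 stood at 91.2, 82.2 and 103 TPM in ESCs and 1.41, 0.86 and 4.10 TPM in EpiLCs (-5.51, SE 0.53, adjusted p = 4.25e-04), and Lefty1 fell too (-3.36, SE 0.59, adjusted p = 0.00425). Lhx1, an organizer transcription factor, had the largest fall of the list (-5.65, SE 0.80, adjusted p = 0.00181). In each EpiLC library Foxh1 was thus above, and Nodal, Lefty1 and Lefty2 below, every ESC library. EpiLC 3 had the highest Foxh1 and also the highest Nodal, Lefty1 and Lefty2 of the EpiLC libraries.

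**Figure D4:**
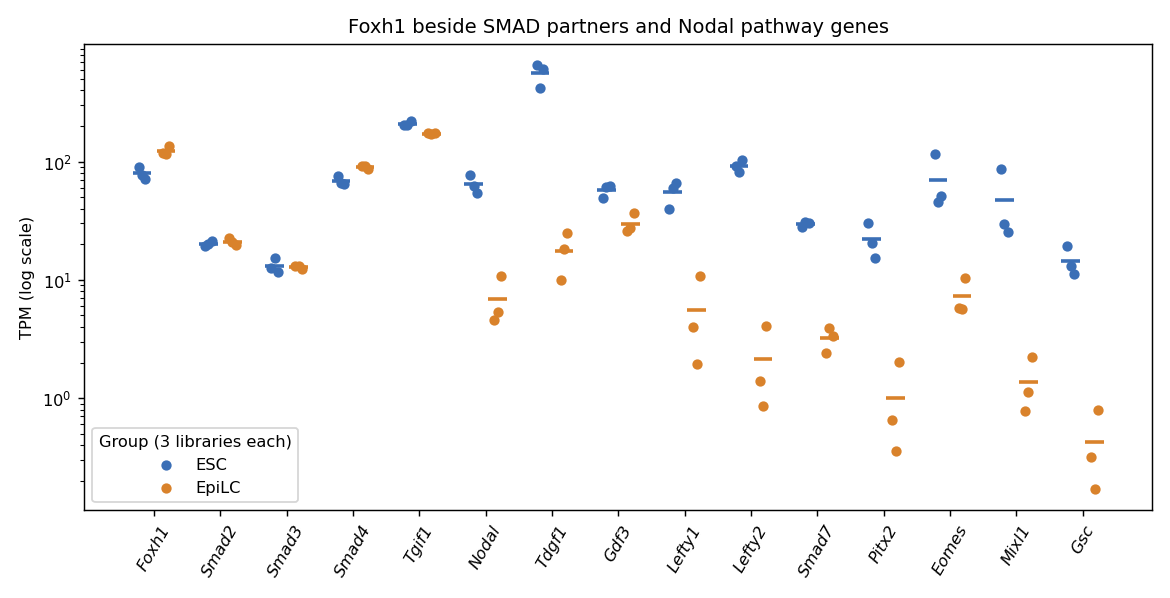
TPM on a log scale of Foxh1, its SMAD partners and genes of the Nodal pathway in 3 ESC and 3 EpiLC libraries, with lines for group means. Foxh1 lies higher in EpiLCs (118, 117 and 135 TPM) than in ESCs, Smad2 and Smad3 overlap, and Nodal, Lefty1, Lefty2, Mixl1 and Gsc lie lower in every EpiLC library than in any ESC library.

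Foxd3, a repressor required in the pluripotent epiblast and later in the neural crest, rose from 11.7, 21.3 and 15.4 TPM in ESC 1, 2 and 3 to 29.7, 32.1 and 25.4 TPM in EpiLC 1, 2 and 3. The groups did not overlap, although ESC 2 came close to EpiLC 3. The log2 fold change was 0.80 (SE 0.21, adjusted p = 0.0204), with 1.04 without ESC 2 (adjusted p = 0.00272), and the call was lost without EpiLC 1 (adjusted p = 0.0664) and without EpiLC 2 (adjusted p = 0.0693). Of 11 genes that FOXD3 accompanies in the neural crest 10 were tested with edgeR, and 8 were lower (against 22.8% of all genes tested, and 5 without EpiLC 1 or without EpiLC 2) and 0 higher, with a median log2 fold change of -1.56. None was higher at an unadjusted p under 0.05 either, nor with DESeq2 or limma. They were led by Msx2 (-4.57, SE 0.32, adjusted p = 1.43e-04), Msx1 (-3.15) and Snai1 (-2.85), all of which also act in mesoderm. Sox10, the defining marker of migrating neural crest, was at 0.14 to 0.54 TPM in ESCs and 0.25 to 0.82 TPM in EpiLCs. Of the other FOXD genes, Foxd1 is described with the mesenchymal members below, and Foxd2 and Foxd4 had too few counts to be tested. Foxd4 is a single-exon paralogue of Foxd3, and in EpiLC 1 the expected counts of both were not whole (1147.93 for Foxd3 and 29.07 for Foxd4), as happens when reads are divided between genes. Its counts were 1, 0 and 2 in ESCs and 29.07, 2 and 32 in EpiLCs, so that EpiLC 2 was like the ESC libraries.

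Of the FOXO factors, which respond to PI3K and AKT, only Foxo1 passed the test. Foxo1 stood at 17.4, 19.1 and 18.9 TPM in ESCs and at 29.9, 29.9 and 30.5 TPM in EpiLCs, with little spread in either group. The log2 fold change was 0.65 (SE 0.07, adjusted p = 5.81e-04). Foxo4, the most abundant FOXO transcript, had overlapping groups (54.5, 43.2 and 36.6 TPM in ESCs, 46.9, 46.5 and 50.5 TPM in EpiLCs, log2 fold change 0.05, SE 0.14, adjusted p = 0.781). Foxo3 overlapped as well (25.7, 19.3 and 28.1 TPM against 29.9, 32.9 and 25.2 TPM, log2 fold change 0.21, SE 0.16, adjusted p = 0.319), and Foxo6, known mainly from brain, was at 1.32 ± 0.420 and 0.853 ± 0.295 TPM (n = 3 each, -0.70, adjusted p = 0.148). Foxo1 went from 0.427 ± 0.0997 to 0.629 ± 0.0207 of the level of Foxo4 in the same library. Not shown by RNA is where the proteins are in the cell, through which AKT acts on them.

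Genes upstream of the FOXO factors were called in both directions. The list held 23 genes, chiefly of the PI3K and AKT pathway, with the exportin Xpo1, the deubiquitinase Usp7 and the kinases Stk3 and Stk4. All were tested, and 6 were higher (26.1%, against 22.6% of all genes tested) and 8 lower (34.8% against 22.8%), with a median log2 fold change of 0.02 (8 called in all without EpiLC 1). Usp7 (-0.32, adjusted p = 0.0127) and Stk4 (0.17, adjusted p = 0.0424) were among those called. Sgk1, a kinase that phosphorylates FOXO3 beside AKT, fell by 1.55 (SE 0.12, adjusted p = 2.16e-04), from 306 ± 37.3 to 108 ± 13.9 TPM (n = 3 each). Pik3r3, a regulatory subunit of PI3K, rose by 1.48 and Inpp5d, a lipid phosphatase, fell by 1.03, whereas Akt1 was not called (0.12, SE 0.26, adjusted p = 0.726), with 87.0 TPM in ESC 2 against 53.2 and 39.2 TPM in ESC 1 and 3 (adjusted p = 0.0222 without ESC 2). Of 26 genes known as FOXO targets 22 were tested, 3 rose (13.6%) and 9 fell (40.9%), and the median was -0.18. The 3 that rose were Bcl2l11, which encodes the pro-apoptotic BIM (1.47, SE 0.11, adjusted p = 1.61e-04), and the sestrins Sesn3 (1.00) and Sesn1 (0.84). The largest falls were those of the repressor Bcl6 (-3.08, SE 0.28, adjusted p = 3.44e-04), the muscle ubiquitin ligase Trim63 (-2.84), S1pr1 (-2.43) and the PI3K inhibitor Pik3ip1 (-2.16). Cdkn1b, the cell cycle inhibitor p27, was not called (0.35, adjusted p = 0.113).

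Foxp4, abundant in ESCs, fell by more than any other forkhead gene with a mean of at least 10 TPM in both states. FOXP factors are repressors that bind as dimers with one another and are best known from lung, brain and lymphocytes. Foxp4 stood at 71.1, 78.2 and 81.0 TPM in ESC 1, 2 and 3 and at 24.8, 29.7 and 25.7 TPM in EpiLC 1, 2 and 3. Every EpiLC library was below every ESC library, and the log2 fold change was -1.58 (SE 0.09, adjusted p = 8.71e-05), between -1.65 and -1.52 when each library in turn was left out. Its paralogue Foxp1 was not called, with 14.9, 19.5 and 17.4 TPM in ESCs and 16.8, 17.2 and 16.98 TPM in EpiLCs (-0.07, SE 0.10, adjusted p = 0.617). The ratio of Foxp1 to Foxp4 went from 0.224 ± 0.0216 to 0.640 ± 0.0535 (n = 3 each). Foxp2, known from the brain, was low in both groups (0.20, 0.70 and 0.23 TPM in ESCs, 0.10, 0.07 and 0.08 TPM in EpiLCs), with 14, 37 and 20 counts against 11, 7 and 8. It was called lower (-2.15, SE 0.57, adjusted p = 0.0208). It fell by 1.39 without ESC 2, its highest library, and its call was lost without EpiLC 1, 2 or 3 (adjusted p = 0.0600, 0.0753 and 0.0660) and with limma on log2(TPM + 1) (0.106). Foxp3, the regulatory T cell factor, had at most 4 counts in a library and was not tested.

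The FOXK genes, which encode repressors of autophagy genes that act downstream of mTOR, moved in opposite directions. Foxk2 was at 53.3, 41.6 and 47.5 TPM in ESCs and 67.5, 64.5 and 63.9 TPM in EpiLCs, a rise of 0.41 (SE 0.09, adjusted p = 0.0118) whose call was lost without EpiLC 1 (adjusted p = 0.0506). Foxk1 was at 18.5, 17.3 and 16.7 TPM in ESCs and 14.7, 14.7 and 14.5 TPM in EpiLCs, a fall of -0.31 (SE 0.07, adjusted p = 0.00830), with an adjusted p = 0.0563 from limma on log2(TPM + 1). Neither pair of groups overlapped. Foxk2 exceeded Foxk1 by 2.71 ± 0.262 times in ESCs and 4.46 ± 0.111 times in EpiLCs (n = 3 each), a difference of ratios chosen for description after the values had been seen, as were the other ratios between paralogues given here.

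Foxm1, the mitotic regulator, lay just outside the threshold. Its levels were 45.1, 36.9 and 45.0 TPM in ESCs and 53.1, 51.5 and 53.8 TPM in EpiLCs, without overlap, and the log2 fold change was 0.27 (SE 0.09, adjusted p = 0.0521). It was called with DESeq2 (adjusted p = 0.0361), with a filter of 10 counts in every library (0.0491), with limma on log2(TPM + 1) (0.0253) and without ESC 3 (0.0363). It was not called in the fits that left out another library (adjusted p between 0.0571 and 0.136), and the log2 fold change was 0.17 without ESC 2. Of 22 genes that FOXM1 drives in mitosis, all tested, 2 rose, 6 fell and 14 were not called (36.4% called, against 45.4% of all genes tested), with a median log2 fold change of -0.16. The rises were those of Cks1b, a subunit of cyclin-dependent kinases (0.66, SE 0.06, adjusted p = 2.48e-04), and the kinase Aurkb (0.25, adjusted p = 0.0165). The largest falls were those of the kinetochore genes Cenpf (-0.68, SE 0.16, adjusted p = 0.0129) and Cenpe (-0.51, SE 0.11, adjusted p = 0.00948). None of the 22 passed a log2 fold change of 1 in size, and the number called was 4 without ESC 1, 2 without EpiLC 1 and 4 without EpiLC 2.

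The remaining abundant FOXN and FOXJ genes changed little, apart from Foxn2. Foxn2 was at 32.0, 32.1 and 34.7 TPM in ESCs and 22.2, 22.3 and 23.7 TPM in EpiLCs, and it fell by 0.59 (SE 0.07, adjusted p = 0.00102), called in every fit that left out a library. Foxn3, a transcriptional repressor linked to cell cycle checkpoints, was at 21.8, 20.8 and 22.4 TPM in ESCs and 25.7, 26.0 and 25.3 TPM in EpiLCs (0.19, SE 0.08, adjusted p = 0.0810, and 0.0370 with limma on log2(TPM + 1)). The ratio of Foxn3 to Foxn2 went from 0.659 ± 0.0187 to 1.13 ± 0.0552 (n = 3 each), so their order was exchanged. Foxn4, a factor of retinal progenitors, was at 2.15 ± 1.297 and 3.24 ± 0.425 TPM (n = 3 each, 0.53, adjusted p = 0.387), and Foxn1, the thymic factor, was not tested. Foxj3 overlapped between the groups (24.4, 23.6 and 25.7 TPM against 25.02, 26.6 and 22.6 TPM, -0.04, SE 0.08, adjusted p = 0.699), and so did Foxj2 (4.96 ± 0.531 and 4.48 ± 0.515 TPM, n = 3 each, -0.20, adjusted p = 0.283).

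Foxj1, the regulator of motile cilia, rose from 1.62, 1.28 and 1.83 TPM in ESCs to 3.42, 3.56 and 3.36 TPM in EpiLCs. The groups did not overlap, and the log2 fold change was 1.07 (SE 0.21, adjusted p = 0.00611). Of 12 genes of the motile cilium 10 were in the table and 9 were tested with edgeR, of which 3 fell (33.3%, against 22.8% of all genes tested) and 0 rose, with a median of -0.54, while DESeq2 called 1 higher and limma 0. Those that fell were Rsph4a, a radial spoke gene (-4.23, SE 0.29, adjusted p = 1.33e-04), Tekt1, which encodes a tektin of the axoneme (-3.08), and Rfx2, a transcription factor of ciliated cells (-3.08). At an unadjusted p under 0.05, 1 gene was higher, the ciliary transcription factor Rfx3 (0.55), and 4 were lower.

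Foxi3, which is known from the pharyngeal arches, the inner ear and teeth, showed the largest rise among the tested members. It stood at 7.83, 5.01 and 5.13 TPM in ESC 1, 2 and 3 and at 32.8, 34.3 and 35.3 TPM in EpiLC 1, 2 and 3. Each EpiLC library exceeded each ESC library, and the log2 fold change was 2.46 (SE 0.20, adjusted p = 2.16e-04), a 5.49-fold difference that ranged from 2.35 to 2.68 on the log2 scale when each library was left out in turn. The counts behind it were 94, 46 and 80 in ESCs and 624, 627 and 588 in EpiLCs. Foxi1 and Foxi2, its paralogues, had 1 and 6 counts over all 6 libraries and were not tested. Its promoter, printed above, held none of the forkhead, FOXH1, CCAAT or TATA letters searched for.

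Foxr2, an X-linked forkhead gene known chiefly from testis and as an oncogene, was at 1.60, 2.13 and 3.36 TPM in ESCs and 4.72, 4.66 and 4.96 TPM in EpiLCs. It was called higher (0.95, SE 0.28, adjusted p = 0.0305), but this call held in only 1 of 6 fits that left out a library, that without ESC 3. The adjusted p was 0.0697 without ESC 1, 0.0558 without ESC 2, 0.0837 without EpiLC 1, 0.0730 without EpiLC 2 and 0.0843 without EpiLC 3. Its paralogue Foxr1 was at 0.71, 1.24 and 1.69 TPM in ESCs and 0.37, 0.78 and 0.43 TPM in EpiLCs (-1.27, SE 0.45, adjusted p = 0.0545, and 0.0345 without ESC 1). The ratio of Foxr2 to Foxr1 went from 1.99 ± 0.268 to 10.1 ± 3.62 (n = 3 each).

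Foxq1 showed the largest fall among the tested members. It is known from hair shaft differentiation and from epithelial-mesenchymal transition. It stood at 10.8, 20.0 and 12.1 TPM in ESC 1, 2 and 3 and at 0.52, 0.34 and 0.27 TPM in EpiLC 1, 2 and 3, with 312, 442 and 454 counts against 24, 15 and 11. All EpiLC libraries were far below the ESC libraries, and the log2 fold change was -5.26 (SE 0.36, adjusted p = 1.34e-04), between -5.57 and -4.95 when each library was left out in turn. Foxq1 (31558170 to 31560976 on GRCm38.p6) is the first of a group of 3 forkhead genes on chromosome 13, which also holds Foxd1 further along. In this group Foxq1 is followed after 64.8 kb by Foxf2 (31625816 to 31631406) and after a further 175 kb by Foxc1 (31806646 to 31810635). All 3 of the group were lower in EpiLCs.

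Of the forkhead genes known from mesenchyme, Foxc1, Foxc2, Foxf2 and Foxd1 were called lower in EpiLCs, whereas Foxf1 was not called and Foxl1 was not tested. The 4 called genes fell from low levels in ESCs that varied strongly between libraries. Foxc2, which acts in vessels and somites, stood at 2.38, 7.36 and 0.96 TPM in ESC 1, 2 and 3 and 0.16, 0.42 and 0.20 TPM in EpiLCs (log2 fold change -3.78, SE 0.82, adjusted p = 0.00984). Foxd1, a marker of kidney stroma, stood at 1.54, 4.55 and 0.43 TPM in ESCs and 0.12, 0.10 and 0.34 TPM in EpiLCs (-3.52, SE 0.93, adjusted p = 0.0203). ESC 2 was the highest library for both, and ESC 3 lay nearest to the EpiLCs. Foxf2, a factor of gut and palate mesenchyme, stood at 0.53, 2.31 and 0.79 TPM in ESCs and 0.23, 0.11 and 0.15 TPM in EpiLCs (-2.87, SE 0.66, adjusted p = 0.0122). Foxc1, the close paralogue of Foxc2, stood at 5.06, 5.70 and 1.33 TPM in ESCs and 0.73, 0.59 and 1.13 TPM in EpiLCs (-2.34, SE 0.56, adjusted p = 0.0136). No ESC library of these 4 genes fell below an EpiLC library, yet for Foxc1 and Foxd1 ESC 3 lay only just above EpiLC 3, the highest EpiLC library.

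Fibroblast markers varied between the ESC libraries in a like order. All 15 were highest in ESC 2, and 14 of 15 had the order ESC 2, ESC 1, ESC 3, which Foxc1, Foxc2 and Foxd1 shared. Of the 8 forkhead genes lower by a log2 fold change above 1, 6 were highest in ESC 2, compared with 11 of the 31 tested. From ESC 3 to ESC 2 the level differed 7.67-fold for Foxc2, 10.6-fold for Foxd1, 4.29-fold for Foxc1, 2.92-fold for Foxf2 and 1.65-fold for Foxq1. Without ESC 2 the log2 fold changes were -2.70 for Foxc2 (adjusted p = 0.00785), -2.39 for Foxd1 (0.0322), -2.06 for Foxf2 (0.0112) and -2.01 for Foxc1 (0.0253), and all 4 were still called. Calls were lost without EpiLC 1 for Foxc1 (adjusted p = 0.0566) and Foxd1 (0.0770), and without EpiLC 2 for Foxc1 (0.0546), Foxd1 (0.0739) and Foxf2 (0.0504). Foxd1 was also not called with limma on log2(TPM + 1) (adjusted p = 0.0625). The part of fibroblast RNA in these falls was not tested.

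**Figure D5:**
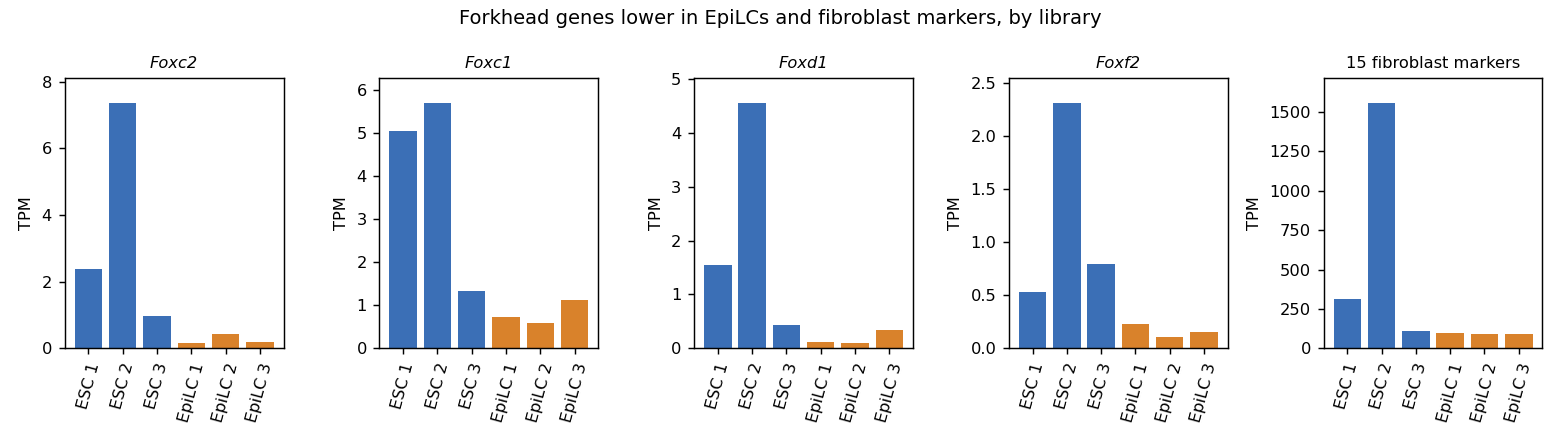
TPM of Foxc2, Foxc1, Foxd1 and Foxf2 and the summed TPM of 15 fibroblast markers in each of 3 ESC libraries (blue) and 3 EpiLC libraries (orange), with each axis starting at 0. ESC 2 has the tallest bar in every panel, with 7.36 TPM of Foxc2 and 1557 TPM of fibroblast markers, and the EpiLC bars stay low.

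A further group of forkhead genes lies on chromosome 8, where Foxf1 (121084386 to 121088154 on GRCm38.p6) is followed after 28.0 kb by Foxc2 (121116171 to 121118895) and after 8.79 kb by Foxl1 (121127685 to 121130644). Foxf1, a factor of lung and gut mesenchyme, was at 1.44, 0.52 and 0.34 TPM in ESCs and 0.38, 0.37 and 0.14 TPM in EpiLCs, and its groups overlapped (-1.39, SE 0.63, adjusted p = 0.111). Without ESC 3 it was called (-1.77, adjusted p = 0.0447), and without ESC 1 the log2 fold change was -0.56 (adjusted p = 0.439). Foxf1 was highest in ESC 1, unlike Foxc2. Foxl1, a factor of gut mesenchyme, had 1, 9 and 0 counts in ESCs and 2, 1 and 1 in EpiLCs. Foxd2 and Foxe3 are neighbours on chromosome 4, 15.5 kb apart. Foxd2 had at most 7 counts in a library, the antisense transcript Foxd2os was at 0.200 ± 0.131 and 0.313 ± 0.228 TPM (n = 3 each, 0.62, adjusted p = 0.526), and Foxe3 had 0 counts in every library, which with 3 counts as the floor allows up to between 0.0855 and 0.177 CPM.

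Foxa2, the pioneer factor of endoderm, node and floor plate, fell from 5.01, 5.19 and 5.27 TPM in ESC 1, 2 and 3 to 0.46, 0.70 and 2.05 TPM in EpiLC 1, 2 and 3. The ESC libraries were nearly equal, with ESC 2 between the others, and EpiLC 3 held several times the level of the other EpiLC libraries. The log2 fold change was -2.31 (SE 0.52, adjusted p = 0.0108), and it lay between -3.18 and -1.95, always called, when each library was left out in turn. Of 14 genes that mark FOXA2-expressing endoderm and node 10 were tested, and edgeR called 6 lower (against 22.8% of all genes tested) and 0 higher, with a median of -2.67 and with 0 higher also at an unadjusted p under 0.05, with DESeq2 and with limma. They included Gsc (-5.12, SE 0.51, adjusted p = 4.66e-04), Hnf4a (-3.67, SE 0.59, adjusted p = 0.00314), Cxcr4 (-3.08, SE 0.37, adjusted p = 9.16e-04) and Sox17 (-2.68, SE 0.40, adjusted p = 0.00220). Hnf4a was scarce in both groups, with 0.18, 0.29 and 0.49 TPM in ESCs and at most 0.03 TPM in EpiLCs. The lists overlap, since Gsc was also counted with the Nodal targets and the streak markers, and Sox17 with the primitive endoderm markers. The paralogues Foxa1 (1.00, 2.54 and 0.75 TPM in ESCs, 0.80, 0.86 and 1.79 TPM in EpiLCs, -0.33, adjusted p = 0.640, with 0.35 without ESC 2) and Foxa3 (1.3, 1.88 and 2.51 TPM against 2.27, 3.09 and 3.25 TPM, 0.53, adjusted p = 0.190) were not called.

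EpiLC 3 stood apart for a small set of genes of streak and node, a fact noticed after their values had been seen. T, the primitive streak factor, was at 0.87, 0.69 and 30.7 TPM in EpiLC 1, 2 and 3, Noto, a notochord factor, at 0, 0 and 1.24 TPM, and Shh at 0.05, 0.10 and 1.23 TPM. Foxb1, a forkhead gene of the early neural plate and midline, had 2, 4 and 98 counts in the same libraries (0.04, 0.09 and 2.29 TPM) and 6, 4 and 6 counts in ESCs. Foxa2 and Foxb1 were thus both highest in EpiLC 3 among the EpiLCs. Without EpiLC 3, 15 forkhead genes were called (46.9%, against 35% of all genes in that fit), 6 higher and 9 lower, Foxa2 among the latter.

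The 13 forkhead genes that were not tested had between 0 and 120 counts over all libraries and a mean of at most 0.81 TPM in either group. They were Foxb1, Foxb2, Foxd2, Foxd4, Foxe1, Foxe3, Foxi1, Foxi2, Foxl1, Foxl2, Foxn1, Foxp3 and Foxs1, most of them known from differentiated organs. Foxs1, known from pericytes and sensory neurons, had 7, 19 and 0 counts in ESC 1, 2 and 3 and 0, 1 and 0 in EpiLCs, highest in ESC 2. Foxe1, the thyroid factor, had 4, 2 and 4 counts in ESCs and 7, 18 and 12 in EpiLCs. Foxl2, the ovarian factor, had 6, 10 and 2 counts in ESCs and 15, 11 and 4 in EpiLCs. With no filter on low counts Foxd4 (log2 fold change 3.72, adjusted p = 0.0388) and Foxs1 (-4.97, adjusted p = 0.0480) were called as well.

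The abundant and the scarce members also differed in gene structure. In the principal transcripts of GENCODE vM21, 14 of the 44 forkhead genes (31.8%) had a single exon, against 1116 of 20469 protein-coding genes of the table (5.45%). Among the 15 members at 10 TPM or more in either group 2 had a single exon and the median was 6 exons, whereas among the other 29 members 12 had a single exon and the median was 2 exons. The median over protein-coding genes was 7 exons. Foxc1, Foxc2 and Foxd1, which fell, and Foxd3, which rose, are all single-exon genes. These counts are descriptions of the annotation set beside the levels.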

How the data were processed

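RNA was extracted from 3 ESC and 3 EpiLC cultures, enriched for polyA and sequenced as strand-specific single-end reads of 76 nt. According to the methods of the study and the submitters' processing notes, the authors trimmed reads with cutadapt 1.16, mapped them to mm10 with STAR 2.5.2a and quantified RefSeq genes with RSEM 1.3.0 (their notes also name DESeq2 1.16.1). The deposited expected counts are raw estimates in which RSEM splits a read with several possible origins, so that paralogues with near-identical sequence share reads (between 4.27% and 4.65% of values per library were not whole). The authors also deposited TPM, scaled by RSEM for transcript length and library. The labels give 48 h for the EpiLCs, whereas the culture methods name a longer time.

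Here, the expected counts were rounded, scaled by TMM (factors 0.979 to 1.02), filtered with filterByExpr and tested with edgeR 4.0.16 (quasi-likelihood test, R 4.3.3), with Benjamini-Hochberg adjustment over all genes tested, a threshold of 0.05 and no covariate. A log2 fold change above 1 was counted separately. Library totals were 22118416, 16967741 and 28521848 expected counts for ESC 1, 2 and 3 and 35096210, 33982359 and 30683164 for EpiLC 1, 2 and 3. Forkhead genes with a mean of at least 10 TPM in either group, or called with a log2 fold change above 1 in size, were described in full, and others by subfamily or genomic neighbourhood. From each gene list up to 4 called genes with the largest change were named, with genes of direct role. The members and lists were chosen with earlier results of these data known. Lists were described by counts and medians, without a test of the list. The alternatives tried were upper-quartile normalization, DESeq2 1.42.0, no filter, at least 10 counts in every library, the replicate number as a block, limma 3.58.1 on log2(TPM + 1) with a pseudocount of 1, leaving out each library in turn and, for sums, TMM-scaled CPM. The tests were checked on simulated data. Promoters were taken from a RefSeq table on GRCm38.p6, and exon counts from GENCODE vM21. A few results for single genes, members included, are not reported here. The labels call the libraries biological replicates.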

Additional observations from a re-analysis of the deposited data

How the results depend on the processing

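Of the 17 forkhead genes called, 17 were also called with DESeq2, with upper-quartile normalization and with no filter, 14 with limma on log2(TPM + 1) and 13 with at least 10 counts in every library, and none of the shared calls changed sign under these alternatives. Over the 6 fits that left out 1 library, between 11 and 19 forkhead genes were called, 4 to 8 higher and 6 to 11 lower, with 2 to 3 higher and 4 to 9 lower past a log2 fold change of 1. Over all genes these fits called between 4244 and 7181, with 2144 to 3572 higher and 2100 to 3609 lower. The filter of 10 counts in every library left 6 forkhead genes lower and 4 lower past a log2 fold change of 1, since Foxc2, Foxd1, Foxf2 and Foxp2 were then not tested. Foxf1, not called in the main fit, was not tested either. Past a log2 fold change of 1, limma called 1 higher and 5 lower, on a scale that understates changes of low genes. Upper-quartile normalization split the calls over all genes into 3457 higher and 3074 lower, and limma into 3843 and 2848, against 3267 and 3304.

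Leaving out 1 library gave 8 to 14 called genes of the list upstream of FOXO, 2 to 10 FOXM1 targets, 5 to 7 neural crest genes, 2 to 10 fibroblast markers, 4 to 7 primitive endoderm markers and 2 to 5 neural markers. With at least 10 counts in every library the called genes were 2 of the FOXA2 list, 2 streak markers and 1 neural marker, from fewer genes tested. The sum of all forkhead genes had a log2 ratio of -0.025 with TMM-scaled CPM, against 0.13, and that of FOXN was -0.30 against -0.14. Among the members reported here, the uncalled ones whose direction reversed when 1 library was left out ranged from -0.81 to 0.35 (Foxa1, reversed without ESC 2), -0.081 to 0.017 (Foxj3, without EpiLC 3 and, at 0.0079, without ESC 3), -0.063 to 0.199 (Foxo4, without ESC 3) and -0.18 to 0.025 (Foxp1, without ESC 2), and Foxj3 was 0.0090 with limma. The cause of these changes was not tested.

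With the replicate number as a block, 18 forkhead genes were called, 8 higher and 10 lower, including the same 17 and Foxm1 (0.27, adjusted p = 0.0404), and 6085 genes in all. The correlation of deviations between same-numbered libraries was 0.0066, 0.187 and 0.171 for numbers 1, 2 and 3. Those of numbers 2 and 3 were the highest of all ESC and EpiLC pairs, whereas ESC 1 correlated best with EpiLC 3 (0.084). The correlations do not settle whether the numbers pair the samples, and the main fit used no block. The 13 untested members had at most 120 counts over all libraries, which limits the precision of their values. Of these, Foxd4 and Foxs1 were called with no filter, and Foxd4 in 1 fit that left out a library.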
